A study of Mus musculus with 2 samples.

Results

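Protein synthesis is carried out by the ribosome with a set of helper proteins, and 30 genes of that machinery are described here in mouse splenic gamma delta T cells with a normal or a mutant LAT adaptor. They comprise the initiation factor genes (symbols starting with Eif, apart from the interferon-induced kinase Eif2ak2), the elongation factor genes (Eef), the termination factor genes Etf1 and Gspt1, the poly(A)-binding protein gene Pabpc1, and the genes of aminoacyl-tRNA synthetases. Members were chosen by a rule on the gene symbol, set with earlier results of these data known. They come from probes that the platform annotation assigns to 1 gene, and they are 30 of 4331 genes so named. Each member had 1 probe. The same symbol rule matches 119 protein-coding genes of the mouse RefSeq annotation, so most of the families, including eIF5A, the eIF2B subunits and most cytosolic synthetases, were not analysed here.

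RNA came from CD5-bearing gamma delta T cells purified from spleen by magnetic beads and sorting, either from wildtype mice or from LAT3YF mice. LAT is the membrane adaptor through which the T cell receptor engages enzymes such as phospholipase C gamma, and 3YF names tyrosine-to-phenylalanine replacements in it. The sources used here name no strain background, age, number of animals or pooling. Both populations were hybridised together on each of 2 arrays, with wildtype in channel 1 and LAT3YF in channel 2 for + polarity and the channels exchanged for - polarity. The sign of the - polarity array was turned so that both arrays run the same way, and they were counted as 1 replicate because no label names separate animals or extracts. Every value written as mean ± SD has its SD over 2 arrays, which covers technical error only, and no test of the genotypes was possible. The sources do not say which channel is the numerator. A positive log10 ratio thus marks the same population throughout and a negative one the other, but which of them is LAT3YF is not settled. Only ratios were analysed, so neither the level of a transcript nor the presence of T cell transcripts in each population can be read from these values, and fewer cells of a type cannot be told apart from less RNA per cell.

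Translation begins when eIF2 brings the initiator tRNA to the small ribosomal subunit, eIF3 holds that subunit ready, and the eIF4 factors deliver the capped mRNA to it. Elongation factors then bring in charged tRNAs and move the ribosome, release factors end the chain, and tRNA synthetases charge each tRNA with its amino acid. In T cells activation is known to raise protein synthesis, and eIF2 kinases and eIF4E-binding proteins are the classical brakes on initiation.

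All 30 members had mean ratios within 1.5-fold of equal abundance, as did 80.0% of all named genes. A gene was called when its mean ratio reached 2-fold (0.301 on the log10 scale) and both arrays agreed in sign. By this rule of size 0 of 30 members were called, against 8.75% of all named genes (3.72% positive and 5.03% negative). At 1.5-fold (0.176) 0 of 30 were called again, against 17.9% of all named genes (8.43% positive and 9.44% negative). These shares of all genes hold for base 10, which the sources do not state, and at 2-fold they would be 0.231% positive and 0.162% negative if the values were log2. The member means ran from -0.175 (Eif4a2) to 0.152 (Eif4e), whereas those of all named genes ran from -1.25 to 1.29. The median of the members was -0.00953 and that of all named genes 0.0023. The SD across the 30 member means was 0.0929, against 0.193 across all named genes. The median size of the mean ratio, regardless of sign, was 0.0741 for the members and 0.0732 for all named genes. By this median a typical member was about as far from 0 as a typical gene, whereas the large ratios were absent among the members. The spread between the arrays was smaller for the members, however (median SD 0.035, against 0.058 for all named genes). How much of either distance is array error was not tested.

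At the smaller distance of 1.2-fold (0.0792), chosen after seeing the values, 12 of 30 members (40.0%) were called, beside 38.1% of all named genes. They were 6 on each side, or 20.0% of the members, beside 19.8% of all named genes on the positive side and 18.3% on the negative side. The positive members were Eif4e, Eif6, Eif4ebp2, Eif2ak3, Gspt1 and Etf1, and the negative ones were Eif4a2, Eef1a1, Iars2, Eif4b, Eif2ak4 and Pabpc1. A measure of error at this distance is the dye component, meaning the amount of a ratio that follows the dye rather than the population. For 24.0% of all named genes the dye component was past 1.2-fold and the turned signs disagreed. Of the members, 2 met that description, Eef2k and Mars1. With each array past 1.2-fold on its own, 9 of 30 members (30.0%) were called, beside 28.0% of all named genes. At this distance the share of members past the fold was thus close to that of the arrays as a whole.

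**Figure D1:**
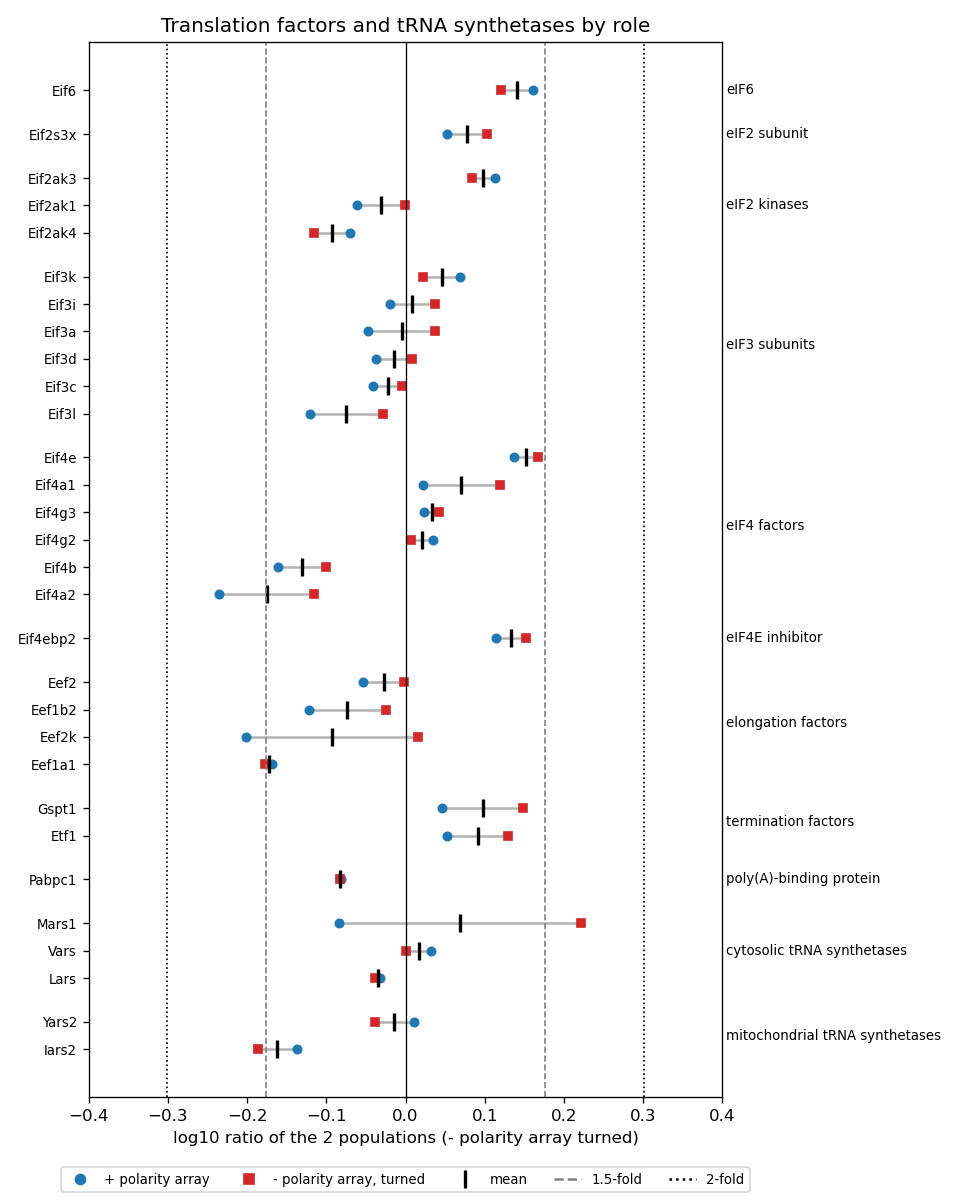
Log10 ratio of the 2 populations (horizontal axis) for each of the 30 genes, grouped by role, with a circle for the + polarity array, a square for the turned - polarity array and a bar for their mean. Every mean lies between -0.175 and 0.152, inside the dashed lines at 1.5-fold. The 4 elongation genes all have means below 0, although the arrays of Eef2k differ in sign.

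The eIF4 group held both the highest and the lowest member. Eif4e, the protein that binds the mRNA cap, had log10 ratios of 0.137 for + polarity and 0.167 for - polarity, in which order the arrays are given throughout (mean 0.152 ± 0.021 SD, 1.42-fold). Eif4ebp2, an inhibitor that sequesters eIF4E, was at 0.114 and 0.152 (mean 0.133 ± 0.027, 1.36-fold). The cap-binding protein and its inhibitor thus lay on the same side, and their ratios differed by 0.023 and 0.0157 on the 2 arrays. Eif4g2 and Eif4g3, scaffold proteins of the group, were near 0, with means of 0.0211 ± 0.020 and 0.033 ± 0.014. Eif4b, which stimulates the eIF4A helicase, was on the other side at -0.161 and -0.101 (mean -0.131 ± 0.043, 1.35-fold).

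The genes of the eIF4A helicase, which unwinds the start of the mRNA, were on opposite sides of 0. Eif4a1 was at 0.0226 and 0.119 (mean 0.0706 ± 0.068, 1.18-fold). Eif4a2 was at -0.235 and -0.116 (mean -0.175 ± 0.084), just short of the 1.5-fold line. The ratio of Eif4a1 exceeded that of Eif4a2 by 0.258 and 0.234 (mean 0.246 ± 0.016, a 1.76-fold difference between the ratios), so the difference varied less between the arrays than either gene did. This pair was singled out after its values were seen. The transcripts of both genes are closely alike, and how far their probes share signal is unknown.

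The upstream sequences of this helicase pair, of Eif4e and of the elongation factor gene Eef2 are given as examples. They come from the top, the middle and the bottom of the range. These genes were picked by hand and not by a rule, so their windows do not represent the members. Each is the stretch of 250 bases before a RefSeq transcript start, read 5′ to 3′ on the strand of the gene, with CACGTG in capitals. CACGTG is the E-box that factors of the Myc family bind, and it reads the same on both strands.
Eif4e (GRCm38.p6, chr3:138527018-138527267, + strand): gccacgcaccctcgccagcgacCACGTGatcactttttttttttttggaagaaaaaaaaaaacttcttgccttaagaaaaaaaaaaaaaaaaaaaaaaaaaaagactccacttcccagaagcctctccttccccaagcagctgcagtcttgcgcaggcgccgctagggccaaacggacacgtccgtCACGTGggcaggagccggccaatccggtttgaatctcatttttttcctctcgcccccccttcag
Eif4a1 (GRCm38.p6, chr11:69672424-69672673, - strand): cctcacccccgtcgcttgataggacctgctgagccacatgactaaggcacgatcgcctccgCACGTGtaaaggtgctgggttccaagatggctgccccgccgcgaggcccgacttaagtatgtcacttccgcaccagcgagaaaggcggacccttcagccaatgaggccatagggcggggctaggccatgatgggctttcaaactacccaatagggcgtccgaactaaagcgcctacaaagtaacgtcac
Eif4a2 (GRCm38.p6, chr16:23107218-23107467, + strand): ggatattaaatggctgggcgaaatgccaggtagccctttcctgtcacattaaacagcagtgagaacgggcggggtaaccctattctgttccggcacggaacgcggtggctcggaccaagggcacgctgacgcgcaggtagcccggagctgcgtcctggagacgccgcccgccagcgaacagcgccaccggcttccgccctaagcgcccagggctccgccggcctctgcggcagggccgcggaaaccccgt
Eef2 (GRCm38.p6, chr10:81176381-81176630, + strand): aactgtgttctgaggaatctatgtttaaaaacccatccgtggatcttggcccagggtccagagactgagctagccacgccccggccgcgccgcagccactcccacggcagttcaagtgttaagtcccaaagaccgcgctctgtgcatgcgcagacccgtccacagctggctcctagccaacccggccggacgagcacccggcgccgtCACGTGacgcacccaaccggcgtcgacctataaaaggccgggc
The Eif4e window, the one of its 2 listed starts that holds the motif, has 2 matches, beginning 228 and 64 bases before the start. The Eif4a1 window has 1 match, 189 bases before the start, and the Eef2 window has 1, 43 bases before the start. The Eif4a2 window has none, and it is the richest of the 4 in G and C (66.4%, against 48.8% for Eif4e, 58.8% for Eif4a1 and 62.8% for Eef2). Because the 4 genes were picked by hand, their matches cannot be read as a trend along the range. Among the 23 members with a listed promoter window, the motif occurred in 6, with mean ratios of either sign.

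Promoter windows of 300 bases (250 before and 50 after the start) were listed for 23 of the 30 members. CACGTG occurred in 6 of these 23 (26.1%), beside 11.1% of the 3422 named genes of the arrays with a listed window and 8.09% of all 27025 genes in the table. Of all 32851 windows, 7.15% hold it. The 6 genes did not lie on 1 side: Eif4e, Eif4a1 and Eif3k had positive mean ratios, and Eef2k, Eef2 and Eif3a negative ones. Myc itself was at -0.176 ± 0.023 and below 2-fold. These matches describe the sequence and are no evidence of binding.

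All 4 elongation genes had a mean below 0, as did 2114 of the 4331 named genes. Eef1a1, which carries charged tRNAs to the ribosome, was at -0.169 and -0.177 (mean -0.173 ± 0.0054, 1.49-fold). Both arrays placed it low, and its spread was small. Many processed copies of this gene exist in the genome, and its probe may share signal with them. Eef1b2, a subunit of the complex that reloads eEF1A with GTP, was at -0.122 and -0.0249 (mean -0.0733 ± 0.068). Eef2, which moves the ribosome along the mRNA, was at -0.0535 and -0.002 (mean -0.0277 ± 0.036), smaller than its spread. Eef2k, the kinase that inactivates eEF2, was at -0.202 but 0.0159 (mean -0.0928 ± 0.15). The median of the 4 was -0.145 for + polarity and -0.0134 for - polarity. Of the 4, only Eef1a1 was past 1.2-fold on both arrays.

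Pabpc1, which binds the poly(A) tail and is known to be translated together with ribosomal proteins and elongation factors, was at -0.081 and -0.0832 (mean -0.0821 ± 0.0015, 1.21-fold). Its arrays were the closest of any member. For comparison, the 43 cytosolic ribosomal protein genes had a median of -0.0394, with 31 means below 0 and 12 above. Of the 43, 0 were past 2-fold, beside 8.75% of all named genes. At 1.2-fold 10 of the 43 were called negative and 2 positive, beside 18.3% and 19.8% of all named genes. The 9 mitochondrial ribosomal protein genes had a median of 0.0393 and the 19 proteasome subunit genes one of 0.0995, with 18 of 19 above 0. At 1.2-fold 2 of the 9 were called positive and 1 negative, and of the 19, 12 were called positive and 0 negative. Of all 4331 named genes, 2217 had means above 0 and 2114 below. The median of the translation factors and synthetases lay between those of the cytosolic and the mitochondrial ribosomal proteins, and whether these families differ from each other was not tested.

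**Figure D2:**
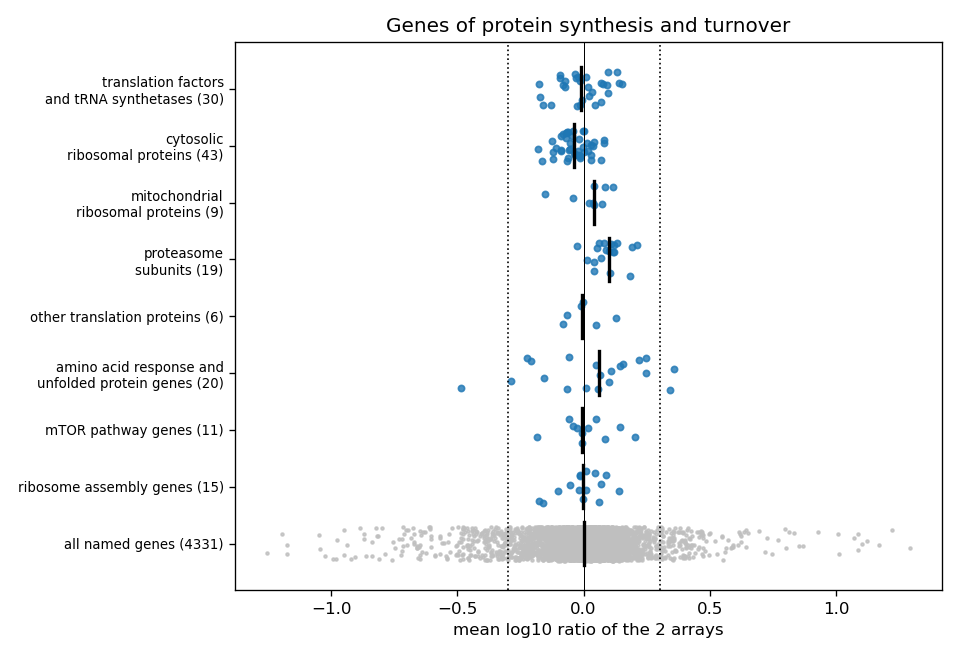
Mean log10 ratio of both arrays (horizontal axis) for the 30 translation factor and synthetase genes, for related families and for all 4331 named genes, 1 point per gene, with a black bar at the median and dotted lines at 2-fold. The 30 members stay inside the dotted lines around a median of -0.00953, whereas 3 of the 20 amino acid response and unfolded protein genes lie outside them.

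The genes of termination were both on the positive side. Etf1, the factor that reads stop codons, was at 0.0529 and 0.129 (mean 0.0911 ± 0.054, 1.23-fold). Gspt1, its GTPase partner, was at 0.0459 and 0.149 (mean 0.0975 ± 0.073, 1.25-fold). The ratio of Gspt1 minus that of Etf1 was -0.00695 and 0.0197, and both genes were lower on the + polarity array.

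Of the eIF2 group, Eif2s3x, the gamma subunit of eIF2 encoded on the X chromosome, was at 0.0519 and 0.103 (mean 0.0772 ± 0.036). The kinases that phosphorylate eIF2 and thereby slow initiation were split. Eif2ak3, which encodes PERK, the kinase of endoplasmic reticulum stress, was at 0.113 and 0.084 (mean 0.0983 ± 0.020, 1.25-fold). Eif2ak4, which encodes GCN2, the sensor of uncharged tRNA, was at -0.0699 and -0.115 (mean -0.0924 ± 0.032, 1.24-fold). Eif2ak1, the haem-regulated kinase, was at -0.0617 and -0.00082 (mean -0.0312 ± 0.043). The ratio of Eif2ak3 exceeded that of Eif2ak4 by 0.183 on 1 array and 0.199 on the other. Eif6, which keeps the large ribosomal subunit from joining too early, was at 0.161 and 0.121 (mean 0.141 ± 0.028, 1.38-fold). Eif6 and Eif4e differed by 0.0109 ± 0.050, less than the spread between the arrays, so their order at the top was not resolved. At the bottom, the ratio of Eif4a2 minus that of Eef1a1 was -0.00245 with a spread of 0.090, and their order was not resolved either.

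The 6 measured eIF3 subunits, parts of the largest initiation factor, had means from -0.075 to 0.0459, a narrower range than that of the 6 eIF4 genes, and a median of -0.00971. Eif3l was lowest at -0.121 and -0.0287 (mean -0.075 ± 0.065), and Eif3k was highest at 0.0694 and 0.0223 (mean 0.0459 ± 0.033). Eif3c (-0.0227 ± 0.026), Eif3d (-0.0145 ± 0.032), Eif3a (-0.00493 ± 0.060) and Eif3i (0.00839 ± 0.040) had means smaller than their spread. Among all the members' families, 1 probe annotated to several genes, with at least 1 symbol that meets the member rule, was left out.

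Of the tRNA synthetase genes, 3 were cytosolic and 2 mitochondrial. Lars, for leucine, was at -0.0318 and -0.0383 (mean -0.035 ± 0.0046). Vars, for valine, was at 0.0325 and 0.00106 (mean 0.0168 ± 0.022). Mars1, for methionine, had opposite signs, -0.0843 and 0.221 (mean 0.0683 ± 0.22), the widest spread of any member. In the mitochondrial pair, Iars2, for isoleucine, was low on both arrays at -0.137 and -0.186 (mean -0.162 ± 0.035, 1.45-fold). Yars2, for tyrosine, was at 0.0103 and -0.0385 (mean -0.0141 ± 0.034). Eprs, a bifunctional synthetase that the symbol rule leaves out, was at 0.0476 ± 0.049.

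The arrays ranked the members alike to a fair degree. Across the 30 members, which are not independent replicates, the turned arrays correlated with Pearson r = 0.689 and Spearman rho = 0.71, and across all named genes with r = 0.403 and rho = 0.24. The same sign was found on both arrays for 24 of 30 members (80.0%), 12 on each side, and for 59.6% of all named genes. The members' median SD between arrays was 0.035, against 0.058 for all named genes, and for 10 of 30 members the SD was larger than the size of the mean ratio, as it was for 47.8% of all named genes. The median of the members was -0.0344 for + polarity and 0.00745 for - polarity.

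**Figure D3:**
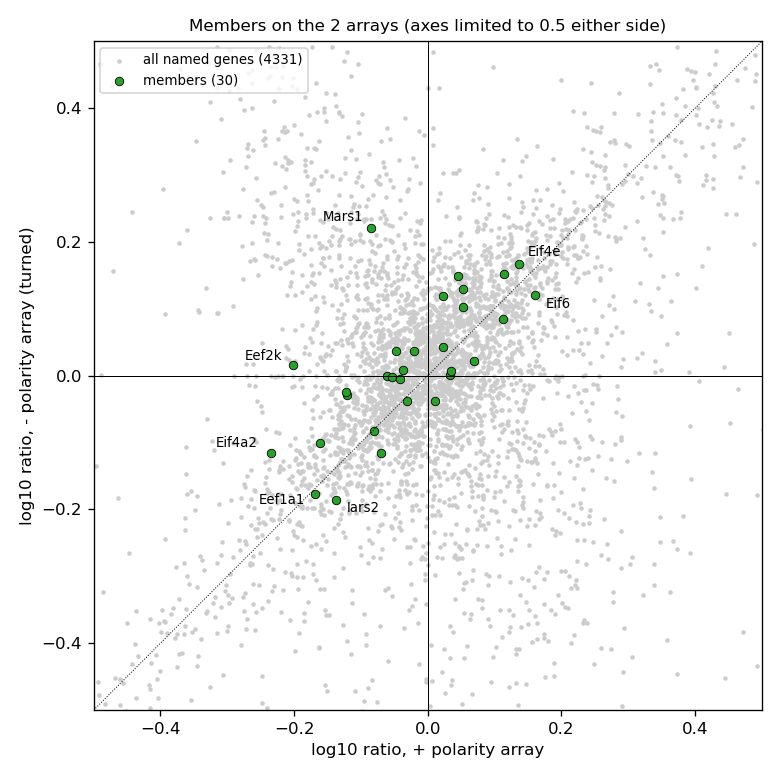
Log10 ratio on the + polarity array (horizontal axis) against the turned - polarity array (vertical axis) for the 30 members (green) and all named genes (grey), with a dotted line of equality. Axes stop at 0.5 on either side, which leaves out 304 genes but no member. Eif4e and Eif6 lie in the upper right, Eif4a2, Eef1a1 and Iars2 in the lower left, and Mars1 and Eef2k far from the line.

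Genes that act on this machinery were described by the same rule of size. Of 20 measured genes of the amino acid and unfolded protein responses, many of them known targets of the transcription factor ATF4 like several synthetase genes, 2 were past 2-fold on the positive side and 1 on the negative side, beside 3.72% and 5.03% of all named genes. Asns, which makes asparagine, was at 0.334 and 0.38 (mean 0.357 ± 0.033, 2.27-fold). Psat1, an enzyme of serine synthesis, was at 0.335 and 0.353 (mean 0.344 ± 0.013, 2.21-fold). Slc38a2, a carrier of neutral amino acids, was at -0.492 and -0.478 (mean -0.485 ± 0.0098, 3.06-fold). Atf4 was at -0.0655 ± 0.032, and the median of the list was 0.0617. Of 11 measured mTOR pathway genes, 15 ribosome assembly genes and 6 other translation proteins, 0 were past 2-fold, beside 8.75% of all named genes. The medians of these lists were -0.00691, -0.00294 and -0.00669.

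Genes listed as markers of other cell types and of cell division were unequal between the populations. These lists were chosen with earlier results of these data known, so their counts are a description and no independent support. Of all named genes, 3.72% were past 2-fold on the positive side and 5.03% on the negative side. Of 18 measured myeloid markers, 15 were past 2-fold on the negative side (range -1.17 to 0.0131, median -0.645), led by Slc40a1 (-1.17 ± 0.021) and Adgre1 (-1.05 ± 0.035). Of 18 measured B cell markers, 8 were past 2-fold on the negative side (range -0.719 to 0.193, median -0.268), led by Ighm (-0.719 ± 0.031) and Ly86 (-0.604 ± 0.0095), which the myeloid list also holds. The 8 also include genes of MHC class II presentation, so the count is not of genes confined to B cells. Cd22 (0.193 ± 0.024) was the 1 B cell marker with a mean above 0. Of 22 measured genes of dividing cells, 10 were past 2-fold on the positive side (range -0.245 to 1.10, median 0.259), led by Rrm2 (1.10 ± 0.25) and Nek2 (0.590 ± 0.037). Mcm6 (-0.245 ± 0.048) was the 1 gene of that list with a mean below 0. Of 12 measured T cell markers, 2 were past 2-fold on the positive side, Cd5 (0.614 ± 0.0077) and Cd6 (0.402 ± 0.079), and 0 on the negative side (range -0.207 to 0.614, median 0.103). Both populations were purified as CD5-bearing cells, so Cd5 is tied to the way the cells were chosen. Of these 12 markers, 3 had means below 0, the lowest being Cd27 (-0.207 ± 0.029). Which cells the marker transcripts came from, and whether other cells contributed to the ratios of the translation genes, was not tested.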

How the data were processed

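The values are log ratios between the channels, 1 for each probe on each array, as the authors deposited them, and were read as log10, although no source used here names the base. Background correction, normalization and the numerator are likewise not stated there. The deposited medians were -0.00283 (+ polarity) and 0.00101 (- polarity), and the columns correlated at r = -0.301 across probes, so the - polarity column was multiplied by -1.

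Of 8014 probes, 4654 had 1 annotated gene, 73 several and 3287 none listed; only the first kind was used. Gene values are means over probes, then over both arrays. All 30 members matched RefSeq (GRCm38.p6) by gene ID. A gene was called by size and sign, with no test. Only the 2-fold rule was tried on simulated data, with changes larger than 2-fold, so its behaviour at smaller distances was not examined. The number of arrays limits the precision. Python 3.11.15 and pandas 2.3.3 were used.

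Members and lists were chosen with earlier results of these data known. By rule, the text names each role's highest and lowest member, members past 1.5-fold or with opposite signs and 1 array past 1.5-fold, up to 4 genes past 2-fold per related list and side, and up to 2 per marker list and side. The other members, Myc, Atf4 and Eprs were named after their values were seen. Alternatives were single arrays, centring, scaling, other probe summaries, other log bases, no same-sign rule and the addition of the synthetase gene Eprs.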

Additional observations from a re-analysis of the deposited data

How the results depend on the processing

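No member was past 2-fold in either direction under any alternative run. For other log bases, which shrink every ratio, this outcome was fixed in advance. The same holds for other probe summaries, which leave a gene with 1 probe unchanged. It also holds for leaving out the same-sign rule, because no member mean reached 2-fold. Centring could hardly change the outcome, since it moved the mean of Eif4a2 only from -0.175 to -0.173. At 1.5-fold the count of negative members went from 0 to 2 with the + polarity array alone (Eef2k and Eif4a2, beside 13.0% of all named genes), to 2 with the - polarity array alone (Eef1a1 and Iars2, beside 17.3%) and to 1 with the arrays centred and scaled (Eif4a2, beside 9.10%). The count of positive members at 1.5-fold went from 0 to 1 with the - polarity array alone (Mars1, beside 16.4%). Each of these counts is a smaller share of the 30 members than of all named genes. If the values were log2, both counts at 1.2-fold, a distance added after seeing the data, would be 0 in place of 6, beside 4.46% (positive) and 5.98% (negative) of all named genes. For natural logs both would be 0 beside 7.85% and 8.96%. The shares of all named genes past 2-fold would then be 0.231% positive and 0.162% negative for log2, and 0.508% and 0.924% for natural logs, so the distance between the members and all genes at 2-fold depends on the base. The largest member ratio would be 1.13-fold or 1.19-fold. The median of the members stayed between -0.0344 and 0.00745 under the alternatives run. The sign of 3 member means changed with the + polarity array alone and of 3 others with the - polarity array alone, and of 0 with centring or scaling. Other probe summaries and other log bases could not change the sign of a member. Without intensities, dim probes could not be left out. Each array holds both populations, but the 2 arrays were counted as 1 replicate, so no paired test of the genotypes was possible.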
